A study of Homo sapiens with 8 samples.

Results

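The genes described are the ADAM, ADAMTS and ADAMTSL genes, chosen by symbol as ADAM, ADAMTS or ADAMTSL followed by a number and by a protein-coding annotation. They were 44 of 27945 genes in the count table, made up of 20 ADAM, 19 ADAMTS and 5 ADAMTSL genes, and 26 of the 44 had enough counts to be tested. Nascent RNA was measured by fastGRO-seq, a nuclear run-on in which RNA made by engaged polymerases takes up 4-thio-UTP and is captured, in IMR90 cells, a line of human lung fibroblasts kept at 2% oxygen. The cells carried ER:RAS, an oncogenic RAS fused to an estrogen receptor domain, and entered senescence when 4-hydroxytamoxifen was added. Each of 4 groups had 2 libraries: control cells labelled WT, with no senescence and no shRNA, and senescent cells carrying shControl, shMETTL3 or shMETTL14. METTL3 and METTL14 form the complex that writes N6-methyladenosine on RNA. Each of them was targeted by 1 hairpin, and control cells had no hairpin, so that senescence and shRNA infection cannot be told apart where senescent shControl cells are set against control cells.

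ADAM proteins are membrane-anchored proteins with a metalloproteinase and a disintegrin domain. The catalytic ones cut the extracellular parts of other membrane proteins, such as growth factor precursors, cytokines and Notch receptors, and release them from the cell, while other ADAMs lack an active site and act in adhesion, mostly in testis or brain. ADAMTS proteins are secreted, carry thrombospondin repeats and cut proteoglycans, procollagens and other matrix proteins, and ADAMTSL proteins resemble them but have no protease domain and bind to the fibrillin matrix. In fibroblasts these enzymes take part in building and remodelling the extracellular matrix.

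Library totals ranged from 14897360 to 20306299, but 86.2% to 92.5% of each total lay in ribosomal RNA rows, which left 1513930 to 2048475 counts for all other genes. METTL3 had 77 and 47 counts in the shControl libraries and 16 and 19 in the shMETTL3 libraries, a log2 fold change of -2.04 (SE 0.31, adjusted p = 1.8e-05). METTL14 had 24 and 28 counts in shControl cells and 18 and 14 in shMETTL14 cells. Its log2 fold change of -0.86 (SE 0.34, adjusted p = 0.076) did not pass the test. These nascent counts do not measure mature RNA or protein, and for both knockdowns the authors refer to a western blot. All 10 listed fibroblast markers had at least 10 counts in every library, and of the defining markers of other cell types EPCAM, CDH1, PECAM1, CDH5, CD3E and MS4A1 had 0 to 2. The summed count of the fibroblast markers was 25842 to 27163 in control, 9223 to 11461 in shControl, 11525 to 12853 in shMETTL3 and 7626 to 8226 in shMETTL14 libraries, and the part of this shift in the results for the proteases was not tested. The 5 epithelial markers summed to 54 to 58 counts in control, 26 to 46 in shControl, 23 in both shMETTL3 and 58 to 77 in shMETTL14 libraries, mostly from KRT8, with 9 to 28, and KRT18, with 12 to 43. The 4 endothelial markers summed to 3 to 10, of which VWF had 1 to 10. Their part in the results was not tested either. CD68, a macrophage marker that is also found in lysosomes of other cells, had 16 to 17 counts in control and 26 to 60 in senescent libraries, while PTPRC had at most 4. Fewer cells of a type and less RNA per cell cannot be told apart in these bulk libraries.

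All adjusted p-values are from edgeR's quasi-likelihood test with Benjamini-Hochberg adjustment over the 12844 genes tested, and a gene is called higher or lower when its adjusted p is below 0.05. Fold changes are on the log2 scale of TMM-normalized counts, each between 2 libraries and 2 libraries, and counts named per library are the deposited counts.

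In senescent shControl cells 5 of the 26 tested members were higher and 8 were lower than in control cells, while 13.3% of all genes tested were higher and 13.3% lower. Of the called members ADAM19 and ADAM12 rose most, and ADAMTS8, ADAMTSL1, ADAMTS15 and ADAMTSL4 fell most. After knockdown of METTL3 in senescent cells 6 members were higher and 2 lower than with shControl, beside 12.2% and 11.2% of all genes. After knockdown of METTL14 5 were higher, beside 9.15% of all genes, and 9 lower, beside 12%. The median log2 fold change of the 26 members was -0.34 in senescence against -0.03 over all genes, 0.07 against -0.03 after METTL3 knockdown, and -0.23 against -0.00 after METTL14 knockdown. Scaling by library size alone, which includes ribosomal RNA, gave 2 higher and 12 lower members in senescence, 14 and 2 after METTL3 knockdown and 8 and 7 after METTL14 knockdown. With that scaling 5.85% of all genes were higher and 39% lower in senescence, 41.1% and 2.75% after METTL3 knockdown, and 24.6% and 5.53% after METTL14 knockdown. Library size without ribosomal RNA rows, added after the data were seen, gave 3 and 10, 5 and 4, and 6 and 8, beside 11.3% and 16.9%, 9.3% and 14.6%, and 12.7% and 9.78% of all genes. Single libraries also moved the counts, and for each left-out library named here the calls over all genes moved the same way. In senescence 3 members were higher and 4 lower without either control library, and 3 and 3 without shControl replicate 1. After METTL3 knockdown 3 were higher without shControl replicate 1, 1 was lower without shControl replicate 2 and 5 were lower without shMETTL3 replicate 1. After METTL14 knockdown 2 were higher without shControl replicate 1 or shMETTL14 replicate 1, and 4 were lower without shControl replicate 2 or shMETTL14 replicate 1.

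**Figure D1:**
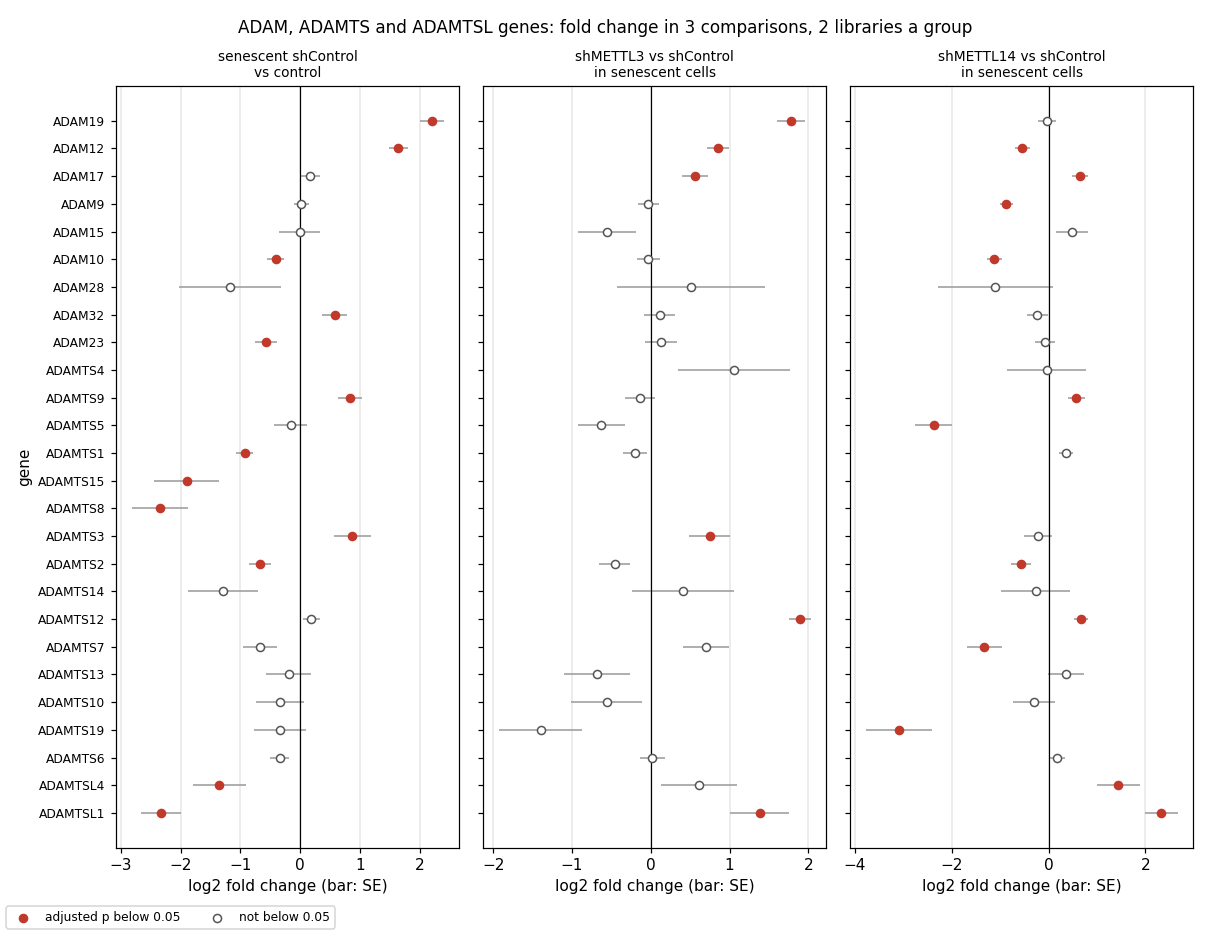
Log2 fold change (x axis, bars are SE) of the 26 tested members (y axis, ordered by role and then by fold change in senescence) in senescent shControl against control cells, shMETTL3 against shControl and shMETTL14 against shControl. Filled points are called, open points are not, and the values of ADAMTS4, ADAMTS8 and ADAMTS15 are left out where a group had 3 counts or fewer. ADAM19 stands at 2.20 and 1.78 in the first 2 panels and at -0.03 in the third.

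The members together took 0.244% and 0.246% of the counts outside ribosomal RNA in the control libraries and 0.239% and 0.235% in shControl libraries. In shMETTL3 libraries this share was 0.419% and 0.396%, and in shMETTL14 libraries 0.223% and 0.259%. Both shMETTL3 libraries stood above the other 6. Within the counts of the members, ADAM19 took 3.85% and 3.57% in control, 18.4% and 14.5% in shControl, 32.5% and 28.4% in shMETTL3 and 13.7% and 19.8% in shMETTL14 libraries. ADAMTS12 took 29.0% and 30.0% of them in shMETTL3 libraries and 13.3% to 25.1% in the other 6.

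**Figure D2:**
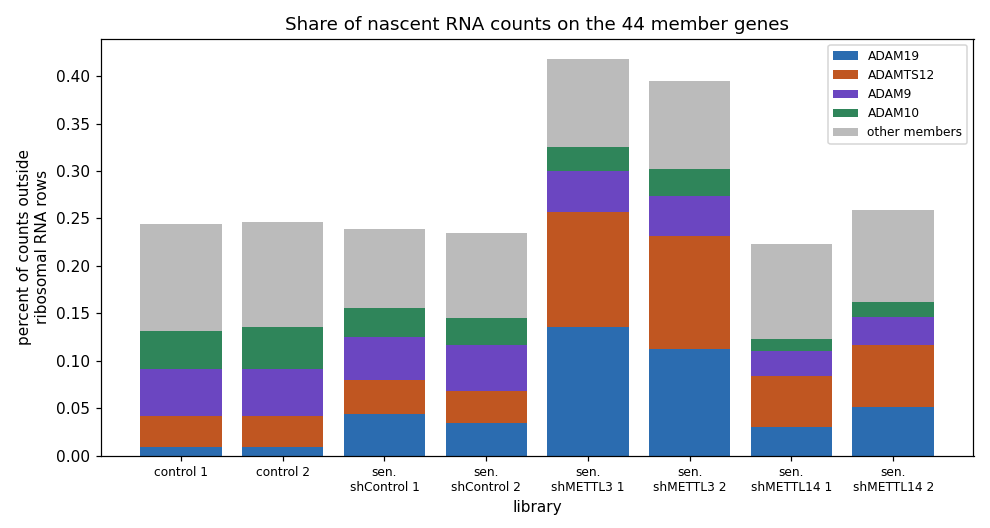
Percent of counts outside ribosomal RNA rows (y axis, from 0) that fell on the 44 members in each of the 8 libraries (x axis), split into ADAM19, ADAMTS12, ADAM9, ADAM10 and all other members. The shMETTL3 bars reach 0.419% and 0.396%, and the other bars lie between 0.223% and 0.259%.

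Per kilobase of gene body, ADAMTS1 had the highest level of the members in control cells, 51.1 ± 0.811 normalized counts per kb (SD, n = 2). It was followed by ADAM9 at 7.56 ± 0.0994, ADAM10 at 4.5 ± 0.211 and ADAM15 at 3.97 ± 0.911, and ADAM10 and ADAM15 lay within their spread of each other. In shMETTL3 cells ADAM19 stood at 24 ± 2.59 normalized counts per kb beside 23.3 ± 0.896 for ADAMTS1, a difference within the spread.

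The stretch of 250 bases before the annotated start is shown for ADAM19, ADAM12 and ADAMTS12, which were higher after METTL3 knockdown and kept that call under every alternative run. They were read 5′ to 3′ on the strand of each gene from GRCh37, the build of the counts (hg19), and capitals mark GGGCGG or its reverse complement.
ADAM19, chr5:157002832-157003081, minus strand: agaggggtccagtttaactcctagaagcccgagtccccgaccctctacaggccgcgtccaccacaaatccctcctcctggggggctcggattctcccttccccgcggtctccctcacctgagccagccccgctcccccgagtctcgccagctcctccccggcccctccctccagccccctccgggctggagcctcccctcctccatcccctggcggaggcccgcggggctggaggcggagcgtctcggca
ADAM12, chr10:128077128-128077377, minus strand: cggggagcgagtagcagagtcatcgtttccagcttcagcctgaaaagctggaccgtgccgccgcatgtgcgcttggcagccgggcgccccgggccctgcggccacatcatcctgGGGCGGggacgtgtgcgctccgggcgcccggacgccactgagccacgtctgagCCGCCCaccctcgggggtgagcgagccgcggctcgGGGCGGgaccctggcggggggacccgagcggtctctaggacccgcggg
ADAMTS12, chr5:33892298-33892547, minus strand: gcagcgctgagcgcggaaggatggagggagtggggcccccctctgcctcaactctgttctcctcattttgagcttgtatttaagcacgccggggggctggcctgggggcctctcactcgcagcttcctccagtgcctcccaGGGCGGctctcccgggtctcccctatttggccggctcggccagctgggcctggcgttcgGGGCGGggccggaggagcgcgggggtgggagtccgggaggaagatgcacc
The ADAM12 window held 3 such matches, at 136, 83 and 48 bases before the start, ADAMTS12 held 2 at 109 and 50 bases, and ADAM19 held none. GGGCGG on either strand was found in 24 of the 44 member windows (54.5%) and in 51.6% of 19403 protein-coding windows of the same length. The AP-1 letters TGANTCA were in 1 member window, that of ADAM28, and in 4.95% of all, TATAAA was in 4 and in 8.95% of all, and the CRE letters TGACGTCA were in 0 and in 1.79% of all. All 4 sets of letters were searched on both strands, and none of them holds another. A ratio of observed to expected CpG of at least 0.6 was found in 25 member windows (56.8%) and in 60.4% of all, and among the 3 shown it was 0.57 in ADAMTS12, 0.61 in ADAM19 and 0.9 in ADAM12. A match of letters describes the sequence and is not a measured binding site.

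Of the 12 ADAMs annotated here as catalytic, 7 were tested, and 2 were higher and 1 lower in senescence, beside 13.3% and 13.3% of all genes. ADAM19 (chr5:156904312-157002831), a sheddase of neuregulins, had 175 and 167 counts in control libraries, 665 and 536 in shControl, 2482 and 2302 in shMETTL3 and 505 and 811 in shMETTL14 libraries. Senescent libraries all lay above control, and both shMETTL3 libraries lay above the other senescent ones. ADAM19 rose in senescence by 2.20 on the log2 scale (SE 0.20, adjusted p = 1.4e-09) and after METTL3 knockdown by a further 1.78 (SE 0.18, adjusted p = 4.4e-08). With shMETTL14 it was -0.03 (SE 0.18, adjusted p = 0.94) from shControl, and the 2 shMETTL14 libraries spanned those of shControl.

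ADAM12 (chr10:127700954-128077127), which sheds EGF-family ligands and marks activated fibroblasts and muscle precursors, had 79 and 88 counts in control, 187 and 213 in shControl, 400 and 437 in shMETTL3 and 148 and 158 in shMETTL14 libraries. No groups overlapped on the normalized scale. Its log2 fold change was 1.64 in senescence (SE 0.16, adjusted p = 7.3e-09), 0.85 after METTL3 knockdown (SE 0.14, adjusted p = 4.7e-05) and -0.54 after METTL14 knockdown (SE 0.15, adjusted p = 0.0094). It was the only one of the 26 members called in opposite directions by the 2 knockdowns. The METTL14 call was lost without shControl replicate 2 (-0.50, adjusted p = 0.11), without shMETTL14 replicate 1 (-0.48, adjusted p = 0.12), with library size alone (-0.20, adjusted p = 0.48) and with DESeq2 (-0.55, adjusted p = 0.057).

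ADAM17, the sheddase that releases TNF and EGF receptor ligands, had 159 and 176 counts in control, 136 and 153 in shControl, 210 and 288 in shMETTL3 and 276 and 231 in shMETTL14 libraries. The 4 knockdown libraries lay above the other 4, with log2 fold changes over shControl of 0.56 after METTL3 knockdown (SE 0.16, adjusted p = 0.0097) and 0.65 after METTL14 knockdown (SE 0.16, adjusted p = 0.0035), and of 0.17 (adjusted p = 0.48) in senescence. The METTL3 call was lost without shControl replicate 1 (0.51, adjusted p = 0.11), shControl replicate 2 (0.59, adjusted p = 0.072) or shMETTL3 replicate 2 (0.36, adjusted p = 0.15). The METTL14 call was lost without shControl replicate 1 (0.61, adjusted p = 0.059) or shMETTL14 replicate 1 (0.53, adjusted p = 0.088).

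ADAM10, which cuts Notch receptors and the amyloid precursor protein, had 760 and 826 counts in control, 455 and 461 in shControl, 456 and 594 in shMETTL3 and 219 and 253 in shMETTL14 libraries. Both shMETTL14 libraries were below all others, at a log2 fold change of -1.12 to shControl (SE 0.15, adjusted p = 2.7e-06). The fall in senescence was smaller, at -0.41 (SE 0.14, adjusted p = 0.03). Its call was lost without either control library (-0.45 and -0.35) or either shControl library (-0.43 and -0.36). It was also lost with DESeq2 (-0.40, adjusted p = 0.099) and with no filter (-0.38, adjusted p = 0.053). After METTL3 knockdown the value was -0.03 (SE 0.14, adjusted p = 0.92). ADAM9, another widely expressed sheddase, had 916 and 949 counts in control, 697 and 754 in shControl, 782 and 875 in shMETTL3 and 426 and 461 in shMETTL14 libraries. It fell after METTL14 knockdown by 0.87 on the log2 scale (SE 0.13, adjusted p = 2.5e-05), and stood at 0.02 in senescence and -0.03 after METTL3 knockdown. ADAM15 had 14 to 67 counts and was called in none of these 3 comparisons. Its span lies wholly within that of DCST1-AS1 on the other strand, so reads of these genes cannot be told apart. ADAM28, which shares 97.27% of its span with LOC101929294 on the other strand, had 1 to 14 counts and was not called either.

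Among the 8 ADAMs without a catalytic site, ADAM23 and ADAM32 were tested. ADAM23, a neuronal adhesion protein that binds integrins, had 126 and 159 counts in control and 68 to 98 in the senescent libraries. Its log2 fold change in senescence was -0.57 (SE 0.19, adjusted p = 0.028), and the call was lost without control replicate 2 (-0.40, adjusted p = 0.29) or either shControl library (-0.50 and -0.62, adjusted p = 0.22 and 0.1) and with DESeq2 (-0.56, adjusted p = 0.16). ADAM32, which lies next to ADAM9 on chromosome 8 with a gap of 2.3 kb, had 56 to 98 counts. It was called higher in senescence at 0.58 (SE 0.21, adjusted p = 0.043), but this call was lost in 10 of 16 alternatives, among them the omission of either control library (0.43 and 0.75, adjusted p = 0.29 and 0.056), of either shControl library (0.61 and 0.56, adjusted p = 0.14 and 0.17) and of shMETTL14 replicate 2 (0.59, adjusted p = 0.052). Neither gene was called after a knockdown.

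**Figure D3:**
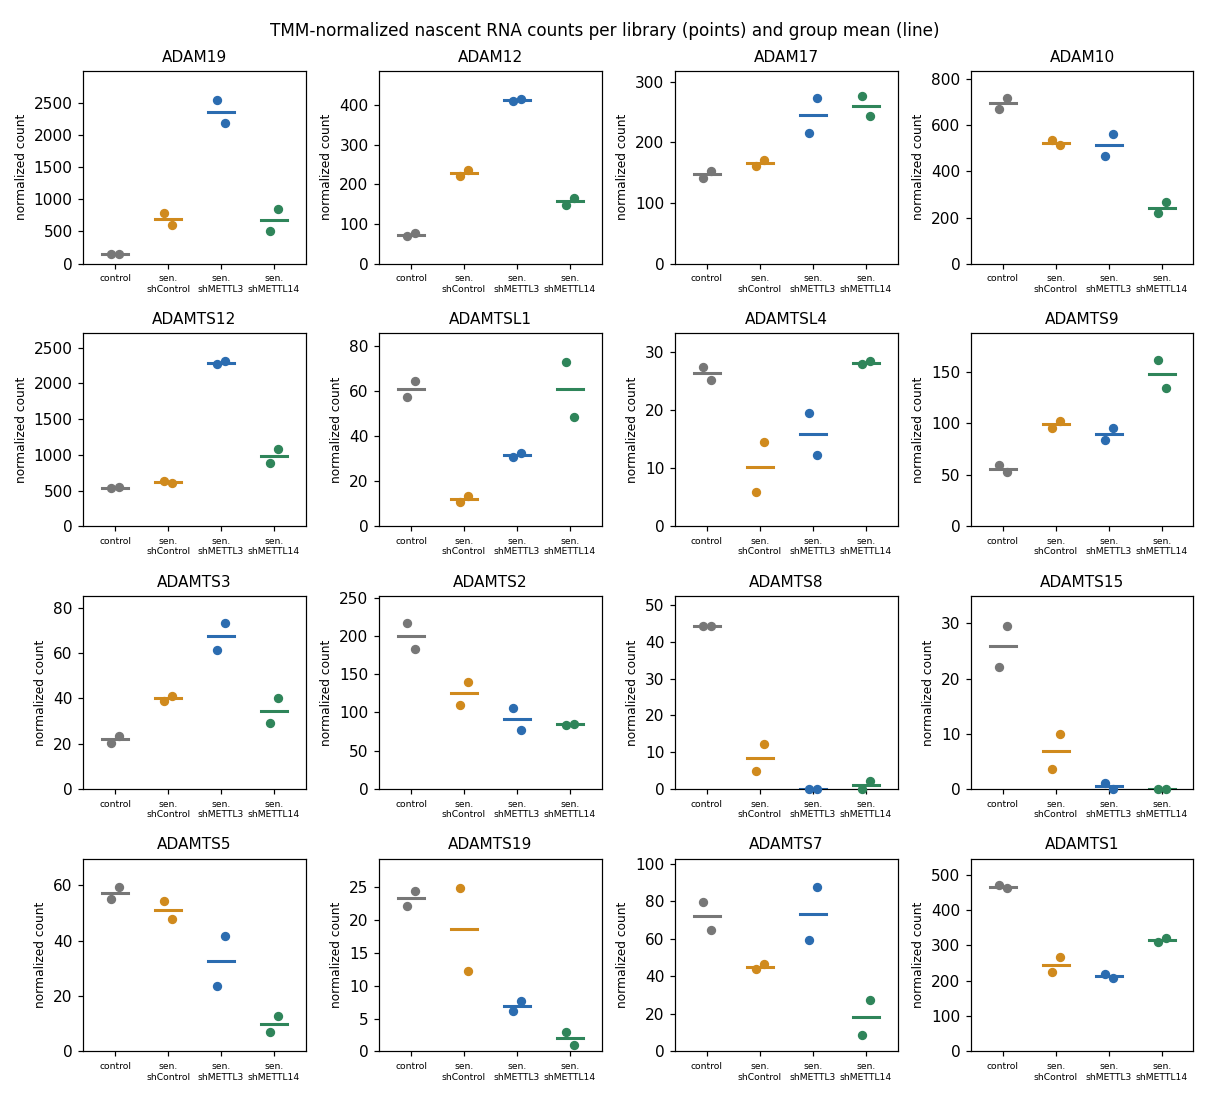
TMM-normalized counts (y axes, from 0) of 16 members in each of the 2 libraries of the 4 groups (x axes), with points for libraries and a line for the group mean. ADAM19, ADAM12 and ADAMTS12 are highest in shMETTL3 libraries, ADAM10 and ADAMTS5 are lowest in shMETTL14 libraries, and ADAMTS8 and ADAMTS15 lie at or near 0 after both knockdowns.

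The proteoglycan-cleaving ADAMTS genes, also called hyalectanases, cut aggrecan, versican and related core proteins. Of 7 such members 6 were tested, and 1 was higher and 3 were lower in senescence, 0 higher and 2 lower after METTL3 knockdown and 1 higher and 3 lower after METTL14 knockdown, each beside 13.3% and 13.3%, 12.2% and 11.2%, and 9.15% and 12% of all genes. Without shControl replicate 2 fewer were lower after either knockdown, and without shMETTL14 replicate 1 fewer were lower after METTL14 knockdown. Fewer of all genes were lower in these fits as well. The 1 higher after METTL14 knockdown, ADAMTS9, lost its call without either shControl library, without shMETTL14 replicate 1 and with DESeq2. ADAMTS8, which was first known for blocking vessel growth, had 50 and 51 counts in control, 4 and 11 in shControl, 0 and 0 in shMETTL3 and 0 and 2 in shMETTL14 libraries. ADAMTS15, a versican-cleaving enzyme, had 25 and 34 counts in control, 3 and 9 in shControl, 1 and 0 in shMETTL3 and 0 and 0 in shMETTL14 libraries. They are neighbours on chromosome 11 with no protein-coding gene between them, and are transcribed away from each other. In both genes all control libraries lay above all shControl libraries, and these above all knockdown libraries.

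ADAMTS8 had a log2 fold change of -2.35 in senescence (SE 0.47, adjusted p = 0.0004), or -3.18 without shControl replicate 2. ADAMTS15 fell by 1.90 (SE 0.55, adjusted p = 0.011), and its call was lost without either control library (-2.09 and -1.67, adjusted p = 0.051 and 0.16), without shControl replicate 1 (-1.35, adjusted p = 0.22) and with DESeq2 (-1.92, adjusted p = 0.11), while it was -2.81 without shControl replicate 2. For both genes the counts after the knockdowns were too few for a firm fold change. Against shControl, ADAMTS8 was at least 2.86-fold lower with shMETTL3, taking the floor as 3 counts in each library (adjusted p = 0.0025), and 8.38-fold lower with shMETTL14 (95% counting interval 1.95 to 75.6, adjusted p = 0.026). ADAMTS15 was 14-fold lower with shMETTL3 (95% counting interval 2.06 to 596, adjusted p = 0.025) and at least 2.2-fold lower with shMETTL14 (adjusted p = 0.0081). The intervals cover counting error only.

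The calls of these genes after the knockdowns hung on single libraries. The ADAMTS8 call was lost without shControl replicate 2 for shMETTL3 (adjusted p = 0.065) and shMETTL14 (adjusted p = 0.33), and for shMETTL14 also without shMETTL14 replicate 1 (adjusted p = 0.25) and with DESeq2 (adjusted p = 0.084). Its fitted log2 value for shMETTL14 of -2.92 became -2.08 without shControl replicate 2, -1.98 without shMETTL14 replicate 1 and -6.14 without shMETTL14 replicate 2, which holds its only counts in that group. The ADAMTS15 call was lost without shControl replicate 2 for shMETTL3 (adjusted p = 0.33) and shMETTL14 (adjusted p = 0.14), without shMETTL3 replicate 2 (adjusted p = 0.15) and without shMETTL14 replicate 1 or 2 (adjusted p = 0.085 and 0.058). Its fitted log2 value for shMETTL3 of -3.50 became -2.58 without shControl replicate 2, -2.62 without shMETTL3 replicate 2 and -5.82 without shMETTL3 replicate 1. A fit of only the groups compared did not test these genes after the knockdowns, because they missed its count filter.

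ADAMTS1, an aggrecanase that also cuts versican, had 532 and 529 counts in control, 189 and 239 in shControl, 213 and 218 in shMETTL3 and 309 and 305 in shMETTL14 libraries. It fell in senescence by 0.93 (SE 0.14, adjusted p = 7.1e-06), with no overlap between the groups. After METTL14 knockdown its log2 fold change of 0.36 (SE 0.14, adjusted p = 0.068) did not pass, nor did the -0.20 after METTL3 knockdown. ADAMTS5, the main aggrecanase of cartilage, lies 72.5 kb from ADAMTS1 on chromosome 21 with no protein-coding gene between them. It had 62 and 68 counts in control, 46 and 43 in shControl, 23 and 44 in shMETTL3 and 7 and 12 in shMETTL14 libraries. Its fold change was -0.16 in senescence (adjusted p = 0.73) and -2.37 after METTL14 knockdown (SE 0.38, adjusted p = 3.7e-05), with both shMETTL14 libraries below all others.

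ADAMTS9, a protease of versican and aggrecan that is also needed for primary cilia, had 67 and 60 counts in control, 81 and 92 in shControl, 82 and 100 in shMETTL3 and 161 and 127 in shMETTL14 libraries. It was higher in senescence at 0.83 (SE 0.20, adjusted p = 0.0028) and again after METTL14 knockdown at 0.57 (SE 0.18, adjusted p = 0.025), and stood at -0.14 (adjusted p = 0.64) after METTL3 knockdown. The senescence call was lost with library size alone (0.33, adjusted p = 0.26). The METTL14 call was lost without either shControl library (0.53 and 0.62, adjusted p = 0.17 and 0.11), without shMETTL14 replicate 1 (0.41, adjusted p = 0.32) and with DESeq2 (0.57, adjusted p = 0.15). ADAMTS9-AS1 and ADAMTS9-AS2 on the other strand cover 16.71% and 1.64% of its span and could add reads to it. ADAMTS4, the other aggrecanase of cartilage, had 2 and 0 counts in control, 10 and 1 in shControl, 18 and 9 in shMETTL3 and 4 and 8 in shMETTL14 libraries, and was called in none of these 3 comparisons.

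The 3 procollagen N-proteinases, which trim the amino-terminal propeptide of fibrillar collagens, were all tested, with 1 higher, 1 lower and 1 not called in senescence, beside 13.3% and 13.3% of all genes higher and lower. ADAMTS2, which has this role in skin collagen, had 245 and 210 counts in control, 93 and 126 in shControl, 103 and 81 in shMETTL3 and 84 and 80 in shMETTL14 libraries. It fell in senescence by 0.67 (SE 0.18, adjusted p = 0.0054), a call lost without control replicate 1 (-0.54, adjusted p = 0.1) or shControl replicate 1 (-0.50, adjusted p = 0.16). After METTL14 knockdown it was -0.57 (SE 0.20, adjusted p = 0.039), and this call was lost in 7 of 16 alternatives, which included leaving out control replicate 1 (-0.58, adjusted p = 0.051), shControl replicate 2 (-0.39, adjusted p = 0.38) and shMETTL14 replicate 1 or 2 (-0.59 and -0.58, adjusted p = 0.16 and 0.13).

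ADAMTS3, which also activates VEGF-C, had 23 and 27 counts in control, 33 and 37 in shControl, 60 and 77 in shMETTL3 and 29 and 38 in shMETTL14 libraries. Its shMETTL3 libraries were above all others, and its control libraries below all others. It was called higher in senescence at 0.87 (SE 0.31, adjusted p = 0.036) and after METTL3 knockdown at 0.75 (SE 0.26, adjusted p = 0.041). The first call was lost without any 1 of the 4 libraries compared (0.77 to 0.98, adjusted p = 0.085 to 0.18). The second was lost without either control library (0.74, adjusted p = 0.054), either shControl library (0.70 and 0.77, adjusted p = 0.19 and 0.17), shMETTL3 replicate 2 (0.60, adjusted p = 0.18) or shMETTL14 replicate 2 (0.74, adjusted p = 0.052), and with DESeq2 both were lost (adjusted p = 0.14 and 0.18). ADAMTS14 had 4 to 25 counts and was called in neither.

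ADAMTS12 and ADAMTS7 both cut COMP, cartilage oligomeric matrix protein. ADAMTS12 (chr5:33523640-33892297) had 606 and 628 counts in control, 536 and 543 in shControl, 2211 and 2434 in shMETTL3 and 884 and 1030 in shMETTL14 libraries. After METTL3 knockdown it rose by 1.89 (SE 0.14, adjusted p = 1.6e-10) and after METTL14 knockdown by 0.67 (SE 0.14, adjusted p = 0.00084), with no overlap between these groups, while in senescence it was 0.19 (SE 0.14, adjusted p = 0.34). The order of the groups differed for ADAMTS7. It had 90 and 74 counts in control, 37 and 42 in shControl, 58 and 92 in shMETTL3 and 9 and 26 in shMETTL14 libraries. It fell after METTL14 knockdown by 1.33 (SE 0.36, adjusted p = 0.0097), but the call was lost without shControl replicate 2 (-1.28, adjusted p = 0.076) or shMETTL14 replicate 1 (-0.74, adjusted p = 0.25), and the value was -2.32 without shMETTL14 replicate 2. Its values of -0.67 in senescence (adjusted p = 0.086) and 0.70 after METTL3 knockdown (adjusted p = 0.08) did not pass.

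ADAMTS13, the protease of von Willebrand factor, had 9 to 32 counts and was called in none of the 3 comparisons, and 8.34% of its span lies within REXO4 on the other strand. Of the 6 remaining ADAMTS genes ADAMTS6, ADAMTS10 and ADAMTS19 were tested. ADAMTS19, which is linked to heart valve formation, had 25 and 28 counts in control, 21 and 11 in shControl, 6 and 8 in shMETTL3 and 3 and 1 in shMETTL14 libraries. All 4 knockdown libraries were below the other 4. Its log2 fold change was -3.09 after METTL14 knockdown (SE 0.68, adjusted p = 0.0015), -2.51 and not called without shControl replicate 1 (adjusted p = 0.062) and -4.00 without shMETTL14 replicate 1. The -1.40 after METTL3 knockdown (SE 0.53, adjusted p = 0.056) did not pass. ADAMTS6 (148 to 273 counts) and ADAMTS10 (9 to 29 counts), a pair of related enzymes tied to fibrillin microfibrils, were called in none of the 6 comparisons made.

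Of the 5 ADAMTS-like genes 2 were tested, and both were lower in senescence, beside 13.3% of all genes, and higher after METTL14 knockdown, beside 9.15%. ADAMTSL1 (chr9:18474079-18910947), also called punctin, had 65 and 74 counts in control, 9 and 12 in shControl, 30 and 34 in shMETTL3 and 73 and 46 in shMETTL14 libraries. Both shControl libraries were below all others. It fell in senescence by 2.33 (SE 0.34, adjusted p = 4.4e-06), and rose over shControl by 1.38 with shMETTL3 (SE 0.37, adjusted p = 0.008) and by 2.33 with shMETTL14 (SE 0.34, adjusted p = 1.1e-05). The METTL3 call was lost without shControl replicate 1 (1.22, adjusted p = 0.087). It was the only member called lower in senescence and higher after both knockdowns.

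ADAMTSL4, which is needed for the fibres that hold the lens, had 31 and 29 counts in control, 5 and 13 in shControl, 19 and 13 in shMETTL3 and 28 and 27 in shMETTL14 libraries. It was -1.35 in senescence (SE 0.44, adjusted p = 0.022), 0.61 after METTL3 knockdown (adjusted p = 0.39) and 1.44 after METTL14 knockdown (SE 0.44, adjusted p = 0.019). Its shControl libraries were the furthest apart of the 4 groups. The senescence call was lost without shControl replicate 1 (-0.85, adjusted p = 0.3) or either control library (-1.28 and -1.40, adjusted p = 0.11 and 0.067), and the value was -2.12 without shControl replicate 2. The METTL14 call was lost without shControl replicate 1 (0.96, adjusted p = 0.25) or either shMETTL14 library (1.43 each, adjusted p = 0.1 and 0.078), and the value was 2.23 without shControl replicate 2. DESeq2 made neither call (adjusted p = 0.1 and 0.087).

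The 18 members that were not tested had at most 15 counts in any library. ADAM22 reached 15, ADAM20 13, ADAMTSL5 10, ADAMTS16 9, ADAM8 8, ADAMTSL3 7, ADAM11 6, ADAMTS17 5 and ADAM33 4. ADAM21 and ADAMTS20 reached 3, ADAM18 and ADAMTS18 reached 2, and ADAM2, ADAM7 and ADAM29 reached 1. ADAM30 and ADAMTSL2 had no count in any library. Several of these are known mainly from testis or brain, and at this depth a fall in their transcription could not be measured.

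Over the 3 comparisons 7 of the 26 tested members were called in none, beside 51.8% of all genes tested, and 4 in all, beside 4.69%. ADAMTS8 and ADAMTS15 were lower in each, and ADAM12 and ADAMTSL1 went in mixed directions. ADAMTS8, ADAMTS15 and ADAM12 lost a knockdown call without shControl replicate 2, and ADAMTSL1 lost one without shControl replicate 1. The comparisons of a knockdown with shControl share the shControl libraries with the senescence comparison, so a low or high value in shControl enters all 3. Each knockdown was therefore also set against control cells and against the other knockdown.

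With shMETTL3, 8 members were higher than in control cells and 8 lower, beside 20.1% and 20.1% of all genes. Fewer members, and fewer of all genes, were lower without control replicate 2. With shMETTL14, 5 were higher, beside 19.7%, and 11 lower, beside 20.5%. The median of the members was -0.51 against -0.05 over all genes with shMETTL3, and -0.36 against 0.00 with shMETTL14. ADAM19 stood 3.98 above control on the log2 scale with shMETTL3 (SE 0.20, adjusted p = 1.2e-14) and 2.18 above with shMETTL14 (SE 0.20, adjusted p = 9.5e-10). ADAM12 was 2.49 and 1.10 above control, and ADAMTS12 2.08 and 0.86 above, all called. ADAM10 was at -1.52 with shMETTL14 and at -0.43 with shMETTL3. The latter call was lost without control replicate 2 (-0.39) or shMETTL3 replicate 1 (-0.31), with DESeq2 and with library size alone. ADAMTSL1 was at -0.00 (SE 0.25, adjusted p = 0.99) with shMETTL14 and ADAMTSL4 at 0.10 (SE 0.36, adjusted p = 0.86), neither called, and ADAMTSL1 with shMETTL3 was at -0.95 (SE 0.27, adjusted p = 0.0064), or -0.87 without control replicate 2 (adjusted p = 0.053). ADAMTS8 was at least 15-fold lower than control with shMETTL3, by the same floor, and 43.2-fold lower with shMETTL14 (95% counting interval 11.7 to 362). The fitted log2 value of the latter, -5.27, was -4.30 without shMETTL14 replicate 1 and -8.48 without shMETTL14 replicate 2, called in both. ADAMTS4 had 2 counts in control and 27 in shMETTL3 libraries, a ratio of 15.2 (95% counting interval 3.81 to 132, adjusted p = 0.0029), and was not called without control replicate 2 (adjusted p = 0.061). Its fitted log2 value of 3.75 was 6.73 without control replicate 1 and 3.11 without shMETTL3 replicate 1.

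Set directly against each other, 5 members were higher with shMETTL14 than with shMETTL3, beside 16.5% of all genes, and 8 were lower, beside 18.7%. Fewer members were higher without shMETTL14 replicate 1 or shMETTL3 replicate 2, and fewer of all genes were as well. The median was -0.51 against 0.01 over all genes. Lower with shMETTL14 were ADAMTS7, ADAM19, ADAMTS5, ADAM12, ADAMTS12, ADAM10, ADAMTS3 and ADAM9. Higher were ADAMTS13, ADAM15, ADAMTSL1, ADAMTS9 and ADAMTS1. Of the 7 tested catalytic ADAMs 4 were lower and 1 higher.

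The pathway list held 49 inhibitors, regulators and substrates of these enzymes, of which 36 were tested. In senescence 11 were higher and 10 lower, beside 13.3% and 13.3% of all genes, after METTL3 knockdown 4 and 10, beside 12.2% and 11.2%, and after METTL14 knockdown 7 and 13, beside 9.15% and 12%. With library size alone these counts were 8 and 17, beside 5.85% and 39% of all genes, 19 and 2, beside 41.1% and 2.75%, and 11 and 9, beside 24.6% and 5.53%. Fewer were called in either direction after METTL3 knockdown without either shControl library. After METTL14 knockdown fewer were higher without any 1 shControl or shMETTL14 library. Fewer of all genes were called in these fits as well. All 4 tested inhibitors were called in senescence. TIMP1, a general inhibitor of metalloproteinases that includes ADAM10 among its targets, rose by 2.68 (SE 0.17, adjusted p = 8.8e-13). TIMP3, the main inhibitor of ADAM17 and of the aggrecanases, fell by 1.56 (SE 0.15, adjusted p = 3.1e-09), RECK, a membrane-bound inhibitor of ADAM10, by 1.11 and TIMP2 by 0.69. TIMP3 had 985 and 990 counts in control, 215 and 300 in shControl, 255 and 259 in shMETTL3 and 841 and 703 in shMETTL14 libraries, a 2.68-fold rise (adjusted p = 4.6e-08) after METTL14 knockdown. TIMP1 and TIMP3 lie wholly within SYN1 and SYN3 on the other strand, and reads of these pairs cannot be told apart.

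Among 6 tested regulators of ADAM10 and ADAM17 traffic, TSPAN14, a tetraspanin that escorts ADAM10, rose in senescence by 1.13 (adjusted p = 2.4e-06) and RHBDF1, the iRhom partner of ADAM17, by 0.87 (adjusted p = 0.0018). TSPAN5, another ADAM10 tetraspanin, fell by 0.73 (adjusted p = 0.00024) and rose by 0.94 (adjusted p = 1.7e-05) after METTL3 knockdown. TSPAN17 was at -0.08 in senescence, not called, and higher after METTL14 knockdown at 0.75 (adjusted p = 0.041), a call lost without any of the 2 control, 2 shControl or 2 shMETTL14 libraries in turn (0.69 to 0.82, adjusted p = 0.054 to 0.23). DESeq2 did not make the TSPAN17 call either (0.76, adjusted p = 0.19). FURIN, which removes the prodomain of ADAM and ADAMTS proteins, was higher in senescence at 0.81 (adjusted p = 0.0092). It was lower after METTL3 knockdown at -1.09 (adjusted p = 0.0014). DESeq2 did not call the senescence rise of FURIN (0.81, adjusted p = 0.05). Its first call was lost without control replicate 2 (0.47, adjusted p = 0.23) or shControl replicate 2 (0.65, adjusted p = 0.14), and both were lost with library size alone (0.31 and -0.49), as was that of RHBDF1 (0.37). B3GLCT, which adds glucose to thrombospondin repeats, was at -0.78 in senescence (adjusted p = 0.067). It was higher after both knockdowns, at 1.06 and 0.98 (adjusted p = 0.013 and 0.024). DESeq2 made neither of these 2 calls (1.08 and 0.99, adjusted p = 0.07 and 0.12). The METTL3 call was lost without either shControl library or shMETTL3 replicate 2 (0.89 to 1.05, adjusted p = 0.079 to 0.099), and the METTL14 call without any of the 4 libraries compared (0.93 to 1.01, adjusted p = 0.075 to 0.15). LRP1, a receptor that takes up ADAMTS proteins, was lower after both knockdowns, at -0.49 and -0.80 (adjusted p = 0.028 and 0.00065). The first call was lost without either shControl library (-0.50 and -0.49) or shMETTL3 replicate 2 (-0.22). It was also lost with DESeq2 (-0.47, adjusted p = 0.062), and the value was 0.11 with library size alone.

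Of 12 tested shed substrates 7 were higher and 1 lower in senescence, 0 and 5 after METTL3 knockdown and 3 and 2 after METTL14 knockdown, each beside 13.3% and 13.3%, 12.2% and 11.2%, and 9.15% and 12% of all genes higher and lower. After METTL3 knockdown fewer were lower without shControl replicate 1, and fewer of all genes were as well. With DESeq2 3 were lower, beside 727 of all 12844 genes. With library size alone 5 were higher and 2 lower, beside 41.1% and 2.75% of all genes. The METTL14 calls of NOTCH2 (0.50, adjusted p = 0.0077) and IL6R (0.82, adjusted p = 0.045) hung on single libraries. Both were lost without either shControl library or shMETTL14 replicate 1, where fewer of all genes were higher as well. With library size alone 5 were higher after METTL14 knockdown, beside 24.6% of all genes. NRG1, the neuregulin that ADAM19 can cut, had 612 and 670 counts in control, 12703 and 11320 in shControl, 7821 and 10088 in shMETTL3 and 1474 and 2728 in shMETTL14 libraries. It rose in senescence by 4.62 (SE 0.22, adjusted p = 3.6e-15), and was at -0.65 and -2.67 after the METTL3 and METTL14 knockdowns, both called lower. The METTL3 call was lost without shControl replicate 1 (-0.53, adjusted p = 0.17), with DESeq2 (-0.63, adjusted p = 0.26) and with library size alone (-0.02, adjusted p = 0.92). EREG, an EGF receptor ligand, rose by 3.93 and L1CAM, an adhesion protein, by 3.11, and both fell after METTL3 knockdown, by 0.82 and 2.24, although EREG was at -0.19 and not called with library size alone. AREG, another EGF receptor ligand, had 0 counts in both control libraries and 11 and 5 in shControl libraries (adjusted p = 0.0012).

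Of 8 tested matrix substrates 0 were higher and 5 lower in senescence, 2 higher and 0 lower after METTL3 knockdown, and 0 higher and 8 lower after METTL14 knockdown, beside the same shares of all genes. With library size alone all 8 were higher after METTL3 knockdown, where 41.1% of all genes were. With the same scaling the METTL14 calls of FN1 (-0.21, adjusted p = 0.13), FBN1 (-0.30, adjusted p = 0.14) and COL1A1 (-0.22, adjusted p = 0.22) were lost, and that of FN1 also without either shControl library (-0.55 and -0.57, adjusted p = 0.068 and 0.059) or shMETTL14 replicate 1 (-0.42, adjusted p = 0.057). VCAN-AS1 on the other strand covers 27.99% of the span of VCAN, with a mean of 247 counts a library, and their reads cannot be told apart. Of the 2 METTL3 calls, VCAN was lost without shControl replicate 2 (0.68, adjusted p = 0.058) and FN1 without either shControl library (0.53 and 0.50, adjusted p = 0.088 and 0.11). COL3A1, COL1A2 and COL1A1, the fibrillar collagens whose propeptides ADAMTS2, ADAMTS3 and ADAMTS14 trim, fell in senescence by 1.86, 1.54 and 1.49, and after METTL14 knockdown by a further 1.60, 1.28 and 0.56. The last of these was lost without shControl replicate 2 (-0.35, adjusted p = 0.33) or shMETTL14 replicate 1 (-0.44, adjusted p = 0.13). FBN2, a fibrillin, fell by 1.17 and then by 1.10. These 3 collagens are also among the 10 fibroblast markers.

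**Figure D4:**
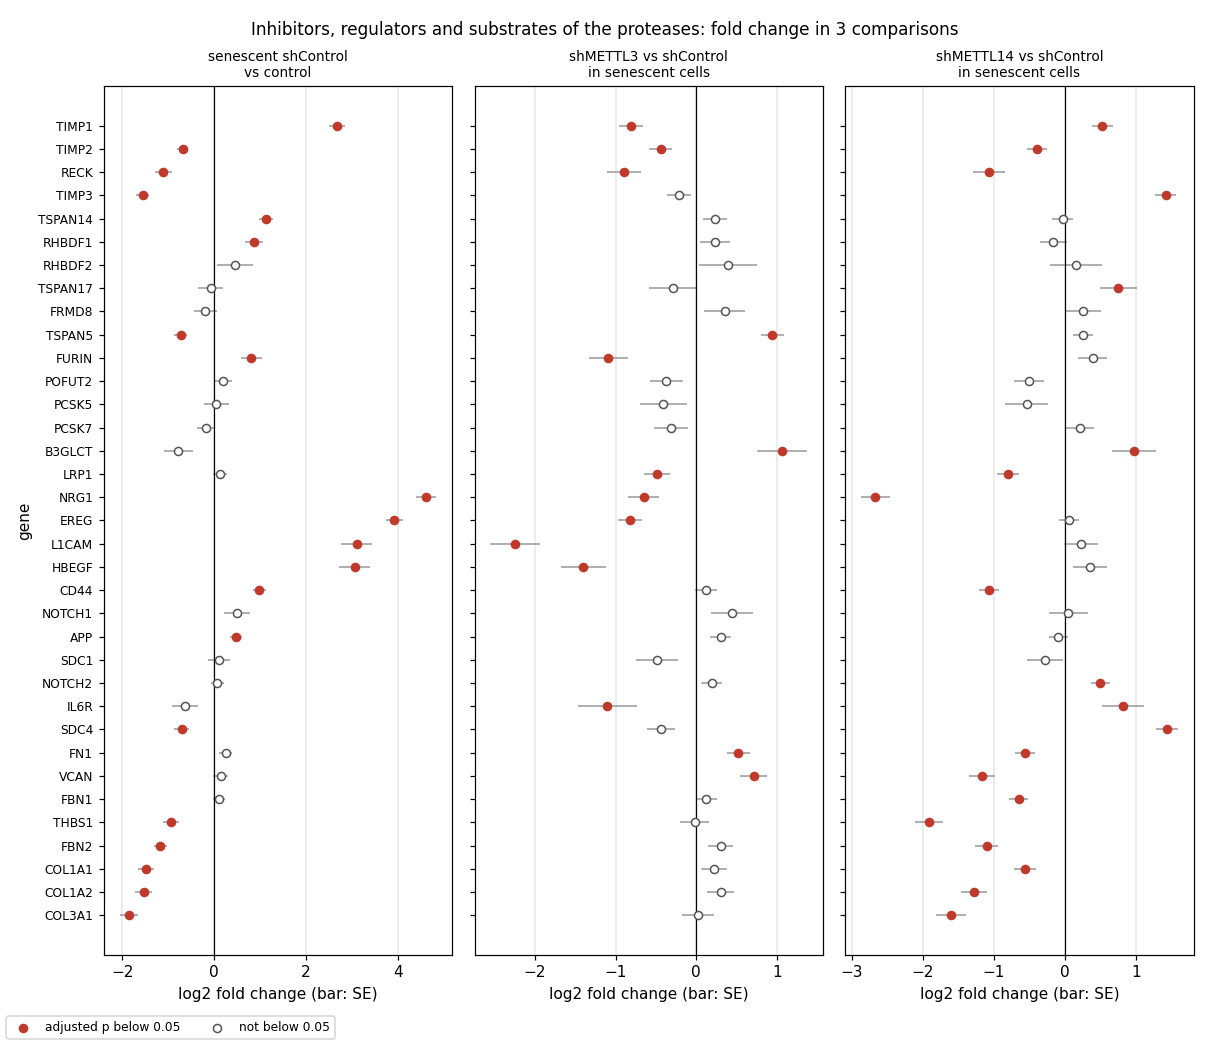
Log2 fold change (x axes, bars are SE) of 35 tested inhibitors, regulators and substrates (y axis, ordered by role) in the 3 comparisons. Filled points are called and open points are not, and AREG, which had 0 counts in control libraries, is left out. Matrix substrates, at the foot, are all below 0 in the shMETTL14 panel.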

How the data were processed

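fastGRO-seq libraries of 4 groups, 2 each, were analysed. The authors aligned reads to hg19 (STAR is named in the processing notes, without a version) and deposited raw counts per gene, made with HOMER, which counted exons and introns alike, with no pooling of replicates. The header asks for 1 strand, yet among 61 genes nested in a gene on the other strand the outer gene had the lower count in any library in 1, so the counts do not separate strands. Replicates are independent experiments per a figure legend of the paper. The methods name a Drosophila spike-in, not used here.

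Counts were normalized by TMM in edgeR 4.0.16 (R 4.3.3), filtered by filterByExpr (minimum count 10, 12844 genes kept) and tested by quasi-likelihood over all 8 libraries in 1 fit, with a Benjamini-Hochberg adjusted p below 0.05 as the call. The biological coefficient of variation was 10.6%. Counting intervals are exact binomial at 95%, and where a group had no counts each of its libraries was set at 3. The fit was tested on simulated data. Alternatives were DESeq2 1.42.0, other scalings and filters, only the groups compared, a replicate block, and each library left out. Sequences came from GRCh37, and plots from matplotlib 3.10.9.

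Members, roles and lists were chosen with earlier results of these data known. Every tested member could be named. Counts per library are given for members called in at least 2 of the 3 main comparisons, for the 5 largest called changes of each, and, chosen after their values were seen, for ADAM9, ADAMTS1, ADAMTS4, ADAMTS7, TIMP3, NRG1 and AREG. Per pathway role, up to 4 called genes with the largest change in senescence are named, and FN1, FBN1, VCAN, NOTCH2, IL6R and APP were added after their values were seen. The 2 pseudogenes ADAM5 and ADAM6 were left out.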

Additional observations from a re-analysis of the deposited data

Results flagged for a closer look

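The 2 knockdowns were compared directly, shMETTL14 against shMETTL3 in senescent cells, and 13 members differed between them by edgeR's quasi-likelihood test of that difference, with 2 libraries in each group, 5 higher with shMETTL14, beside 16.5% of all genes, and 8 lower, beside 18.7%. Among the sheddases the log2 fold change was -1.09 for ADAM10 (adjusted p = 1.9e-06), -0.84 for ADAM9 (adjusted p = 1.9e-05), -1.39 for ADAM12 (adjusted p = 2.8e-08) and -1.80 for ADAM19 (adjusted p = 2.0e-08). ADAM15 was at 1.04 (adjusted p = 0.02), but its shMETTL3 libraries had 48 and 14 counts, and the value was 2.26 without the first and 0.38 (adjusted p = 0.34) without the second, while without shMETTL14 replicate 1 it was 0.94 (adjusted p = 0.13).

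Among the matrix proteases the difference was -1.74 for ADAMTS5 (adjusted p = 0.0012), -1.22 for ADAMTS12 (adjusted p = 1.2e-07), 0.57 for ADAMTS1 (adjusted p = 0.0027) and 0.72 for ADAMTS9 (adjusted p = 0.003). ADAMTS7 was at -2.03 (adjusted p = 2.9e-05), at -1.44 without shMETTL14 replicate 1 and at -3.01 without shMETTL14 replicate 2. ADAMTS3 was at -0.97 (adjusted p = 0.0057) and ADAMTSL1 at 0.95 (adjusted p = 0.009). Without shMETTL14 replicate 1 the calls of ADAMTS9 (0.56, adjusted p = 0.097), ADAMTS3 (-0.77, adjusted p = 0.11) and ADAMTSL1 (0.60, adjusted p = 0.26) were lost. With library size alone, which moved the median of all genes by -0.26 here, those of ADAMTS1 (0.30, adjusted p = 0.2), ADAMTS9 (0.46, adjusted p = 0.1), ADAMTSL1 (0.69, adjusted p = 0.059) and ADAMTS13 (0.79, adjusted p = 0.12) were lost. With DESeq2 those of ADAM15 (1.02, adjusted p = 0.085), ADAMTSL1 (0.93, adjusted p = 0.071) and ADAMTS13 (1.03, adjusted p = 0.16) were lost, and in a fit of only these 2 groups those of ADAM15 (1.05, adjusted p = 0.056) and ADAMTS13 (1.06, adjusted p = 0.076). ADAMTS13 was at 1.05 (adjusted p = 0.043), a call lost without any 1 library other than shMETTL3 replicate 1 (0.57 to 1.11, adjusted p = 0.051 to 0.32), and at 1.75 without that library.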

How the results depend on the processing

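With 2 libraries a group, the number of members called moved with the fit, and no member call changed sign under any of the 16 alternatives. Of 80 calls over 6 comparisons, DESeq2 kept 57 of the 78 it could adjust, library size alone 69, library size without ribosomal RNA rows 74, no filter 77 and removal of ribosomal RNA rows 80. A fit of only the groups compared kept 72 of the 76 it tested, a filter of at least 10 counts in every library 49 of the 50 it tested, and leaving out 1 library 64 to 78. Library size alone moved the median of all genes by -0.49 in senescence, 0.61 and 0.35 after METTL3 and METTL14 knockdown, -0.26 between the knockdowns and 0.12 and -0.14 for shMETTL3 and shMETTL14 against control. Library size without ribosomal RNA moved it by -0.20 to 0.20. The cause of other changes was not tested.

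In senescence 3 members were higher with DESeq2, 2 with library size alone and 3 with library size without ribosomal RNA. Lower were 4 with DESeq2 and 4 with at least 10 counts in every library. Over all genes DESeq2 called 1231 of 12844 higher and 908 lower, and at least 10 counts gave 1371 of 9367 lower. After METTL3 knockdown library size alone gave 14 higher, and 1 was lower with DESeq2, 4 with library size without ribosomal RNA, 0 with at least 10 counts in every library, and 0 with only the groups compared. Both of these filters removed ADAMTS8 and ADAMTS15, the 2 members called lower there, so that they were not tested. Of all 12844 genes DESeq2 called 727 lower after METTL3 knockdown. After METTL14 knockdown 3 members were higher with DESeq2, 8 with library size alone and 3 with at least 10 counts. Lower were 5 with DESeq2 and 4 with at least 10 counts. Over all genes DESeq2 called 568 of 12844 higher and 951 lower, and at least 10 counts gave 988 and 1275 of 9367. Between the knockdowns 2 members were higher with DESeq2, 1 with library size alone, 3 with at least 10 counts and 3 with only the groups compared. Of all 12844 genes 1212 were higher there with DESeq2 and 1177 with library size alone. At least 10 counts gave 1841 of 9367, and only the groups compared 1702 of 11659. Lower than control with shMETTL3 were 5 members with DESeq2 and 4 with at least 10 counts, beside 1586 of 12844 and 1996 of 9367 genes. With shMETTL14 5 members were lower with at least 10 counts, beside 2015 of 9367 genes. These alternatives were run on the pathway genes after the data were seen. Library size alone gave 17 lower in senescence, 19 higher and 2 lower after METTL3 knockdown and 11 higher after METTL14 knockdown, where DESeq2 gave 4 higher. Of 57 pathway and target calls 24 were lost under at least 1 alternative, and with library size alone APP in senescence (-0.02) and TIMP2 (0.17) and LRP1 (0.11) after METTL3 knockdown changed sign.

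With each library left out in turn, 3 to 5 members were higher and 3 to 10 lower in senescence, 3 to 7 and 1 to 5 after METTL3 knockdown, 2 to 6 and 4 to 9 after METTL14 knockdown, and 1 to 6 and 7 to 9 between the knockdowns. Against control 6 to 9 were higher and 5 to 11 lower with shMETTL3, and 5 to 6 and 9 to 12 with shMETTL14. Of the pathway genes 9 to 11 were higher and 10 to 11 lower in senescence, 1 to 6 and 6 to 10 after METTL3 knockdown, and 2 to 7 and 10 to 14 after METTL14 knockdown. Leaving out a library moved the calls over all genes as well. A lone library was taken to vary like the other groups. The replicate block kept 79 of 80 calls and lost ADAMTS13 between the knockdowns (1.04, adjusted p = 0.051). Differences between replicates 1 and 2 correlated between groups at -0.04 to 0.10 over the genes tested. Counting noise weakens such correlations, so they cannot exclude that the numbers pair libraries. Depth limits members with few counts, since 1513930 to 2048475 counts lay outside ribosomal RNA.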
